A study of Drosophila melanogaster with 12 samples.

Results

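The numbered gypsy entries are the internal and long terminal repeat (LTR) sequences of Drosophila melanogaster retrotransposons whose names are GYPSY followed directly by a number, from GYPSY2 to GYPSY12, with GYPSY6A and GYPSY12A. They were picked by name from the transposable element (TE) class of 2 small RNA tables, in which each entry has a row for reads on its Plus strand and a row for reads on its Minus strand. In ovary the rule gave 43 strand-specific features of 968 listed, from 23 entries of which 11 were internal and 12 were LTR entries. In testis it gave 28 features of 845 listed, from 17 entries of which 9 were internal and 8 were LTR entries, and all 28 were also among the ovary features. GYPSY8_LTR, GYPSY9_I, GYPSY9_LTR, GYPSY10_LTR, GYPSY11_I and GYPSY11_LTR were listed in ovary only. No 2 of these features had the same values in every library.

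Gypsy elements are LTR retrotransposons: the internal part encodes the Gag and Pol proteins and, in some elements, a retrovirus-like envelope protein, and the LTR at each end holds the promoter and the end of the transcript. In the gonad such elements are silenced by Piwi-interacting RNAs (piRNAs), small RNAs loaded on Piwi-family proteins that recognise transposon transcripts by base pairing. In ovary, gypsy-group elements are known as targets of piRNAs in the somatic follicle cells as well as in the germline. Whether Plus is the coding strand of each entry is not given in the sources used here, and reads of all lengths were counted together.

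Small RNAs were compared between controls and flies with a further Y chromosome, which asks how that chromosome changes the small RNAs of the gonad. The ovary groups were the control, written XX here, and females carrying the chromosome labelled Yohio or the one labelled Ycongo, written XXYohio and XXYcongo. The testis groups were the control XY and males labelled XYYohio and XYYcongo, where the labels add the same chromosomes to the control genotype. The labels set a caret after the first X in all 6 genotypes, controls included. Every group had 2 libraries, described as biological replicates, from flies aged 2 days that were kept at 23 °C with 14 hours of light. The strain background, the number of animals behind a library and the dissection are not given in the labels.

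The libraries held 897596 to 2663239 reads outside the spike-ins in ovary and 589490 to 1310076 in testis. Of these, 13156 to 76298 reads in ovary and 1245 to 5259 in testis belonged to numbered gypsy features. No entry for the flamenco locus, a source of piRNAs in follicle cells, or for the 42AB locus, a germline source, is in the tables used here, so the cell types of the ovary were not checked. Suste, a Y-linked repeat, summed to 620 and 496 in XX, to between 4660 and 11489 in the 4 ovary libraries labelled with a Y chromosome, and to between 45166 and 90080 in testis. In bulk tissue, fewer cells of a type and less RNA per cell cannot be told apart.

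Numbered gypsy small RNAs took a larger part of TE reads in ovary than in testis, and within ovary the part was highest with Ycongo. The mean was 5.70% ± 0.00799 of TE reads in XX, 5.48% ± 0.0696 in XXYohio and 6.14% ± 0.242 in XXYcongo (SD, n = 2). The XXYcongo libraries held 6.31% (95% Wilson interval 6.26 to 6.35) and 5.97% (5.92 to 6.01), above every other ovary library, the next of which was XX replicate 2 at 5.70% (5.62 to 5.79). The means in testis were 1.65% ± 0.0153 in XY, 1.57% ± 0.030 in XYYohio and 1.53% ± 0.0918 in XYYcongo (SD, n = 2). The testis libraries ran from 1.47% to 1.66%, with both XY libraries above the rest and the ranges of XYYohio and XYYcongo overlapping. An exact two-sided test of 2 against 2 libraries cannot give a p below 0.333, and these shares were not tested. The intervals cover counting error only. Other gypsy-group LTR entries also took their largest part of TE reads in XXYcongo. They held 26.1% ± 0.336 in XX, 25.5% ± 0.244 in XXYohio and 29.3% ± 0.178 in XXYcongo (SD, n = 2), with 18.3% to 21.3% in testis libraries. A high part with Ycongo was thus not particular to the numbered entries.

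**Figure D1:**
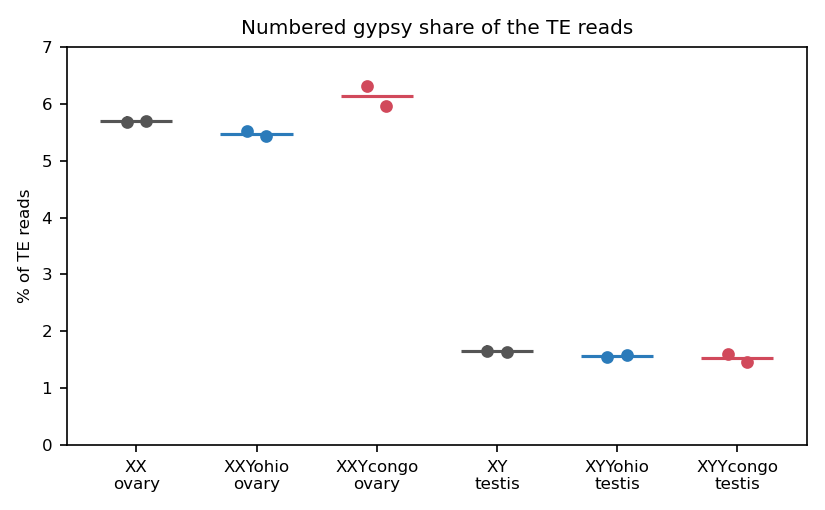
Share of TE reads that belonged to numbered gypsy entries (y axis, %), with 1 point per library and a line at each group mean. The ovary libraries lie between 5.43% and 6.31%, highest in XXYcongo, and the testis libraries between 1.47% and 1.66%.

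The GYPSY12 and GYPSY12A entries together gave 43.2% to 48.5% of numbered gypsy reads in ovary and 43.5% to 49.9% in testis. These shares are not corrected for the length of the entries, so they do not rank the elements by level. Most other entries were read mainly on the Minus strand. Of the 18 entries in ovary with reads on both strands and at least 100 reads in all, 14 had over 50% of their reads on the Minus strand in every library, and GYPSY12_LTR alone had over 50% on the Plus strand in every library. GYPSY5_I was the most one-sided, with a median of 99.7% Minus reads and a range of 98.5% to 99.9%. GYPSY4_I, less one-sided, had a median of 87.1% and a range of 84.8% to 89.2%.

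GYPSY12 and GYPSY12A departed from most other elements in strand. GYPSY12_LTR had a median of 16.4% Minus reads over the ovary libraries, with a range of 14.3% to 20.4%. In testis its Minus share was lower still, at a median of 3.16% and a range of 2.38% to 4.47%. GYPSY12_I was near balance in ovary (median 47.9%, 39.8% to 52.2%) and mostly Plus in testis (median 18.9%, 18.0% to 23.0%). The ovary and testis ranges of these 2 entries did not overlap, and this was not tested across tissues. GYPSY12A_LTR had a median of 51.7% Minus reads in ovary (37.9% to 65.8%). In testis its median was 16.2% (13.3% to 40%), from 104 reads in all. Of the 9 testis entries with both strands and at least 100 reads, 5 were mostly Minus and 3 mostly Plus in every library. GYPSY6_I, in contrast, gave close medians of 70.3% in ovary and 70.6% in testis. Without the GYPSY12 and GYPSY12A entries, numbered gypsy reads were 80.4% to 84.0% Minus in ovary and 78.2% to 84.7% in testis, and other gypsy-group LTR entries were 80.0% to 84.0% and 82.5% to 86.5%.

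**Figure D2:**
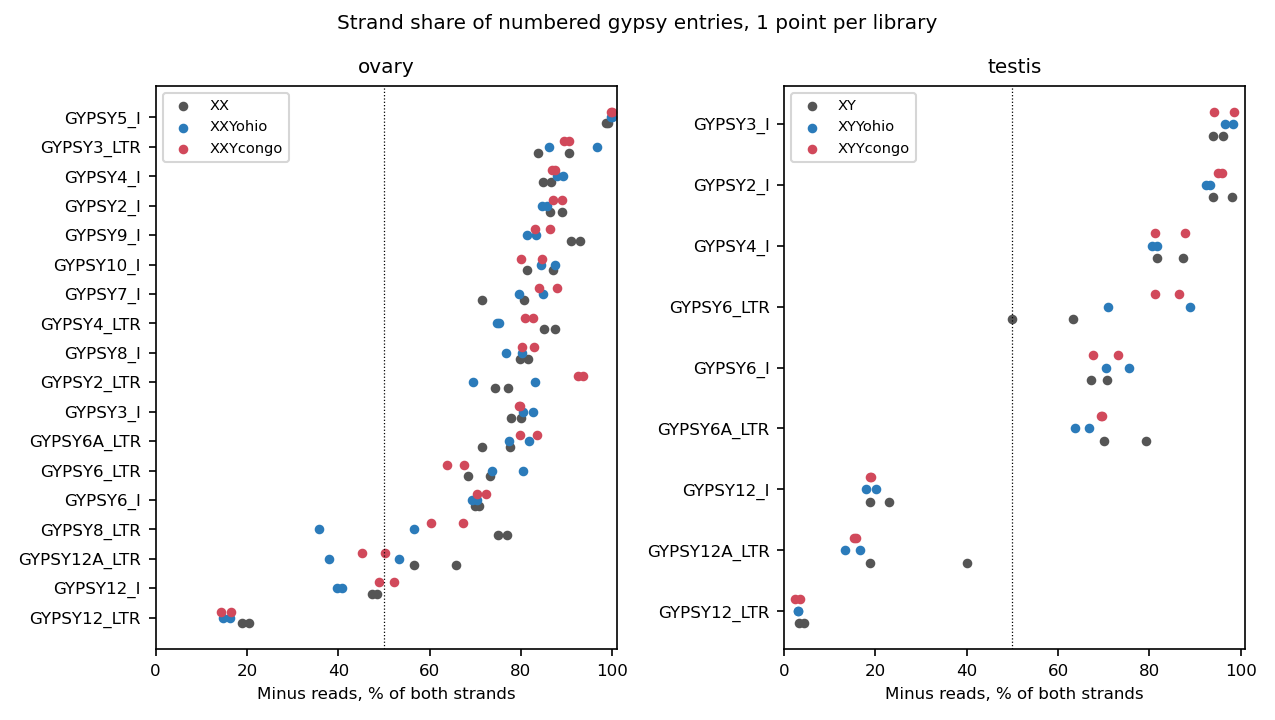
Minus-strand reads as a percentage of both strands (x axis) for each numbered gypsy entry with reads on both strands and at least 100 reads in all, with 1 point per library and colours for the genotypes. GYPSY12_LTR lies far to the Plus side in both tissues, with medians of 16.4% in ovary and 3.16% in testis, while GYPSY5_I lies at a median of 99.7% in ovary.

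In XXYcongo ovary compared with XX, small RNAs of most numbered gypsy features were more abundant on the deposited scale. Of the 37 features with a mean value of at least 5, 27 rose, none fell and 10 were not called, at an adjusted p under 0.05 in limma. The background was high, since 45.5% of all 791 tested features were called higher in the same comparison, 4.3% lower and 49.8% in either direction. The median log2 difference of the 37 was 1.08, beside 0.74 over all features, 1.32 over 117 other gypsy-group LTR features, of which 95 rose and 2 fell, and 0.96 over the 178 remaining TE features, of which 114 rose and 2 fell. The deposited values of all numbered gypsy features summed to 13156 and 11475 in XX, 11187 and 12987 in XXYohio, but 29492 and 26930.4 in XXYcongo. Both XXYcongo sums lay above the other 4.

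The 6 ovary features that were too low to test were both strands of GYPSY11_I and of GYPSY9_LTR, GYPSY9_I Plus and GYPSY5_I Plus, with means of 1.06 to 3.41. The lowest mean among the features tested was 6.40, for GYPSY8_LTR Plus. All values here are reads multiplied by 1 factor per library, and differences are of log2(value + 1), with ± for the standard error, so a low feature shows less than its full change.

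GYPSY2_LTR, the long terminal repeat of GYPSY2, gave the largest difference. Its Minus strand read 26 and 25.9 in XX, 23.5 and 28.6 in XXYohio, but 242 and 175 in XXYcongo. The XXYcongo values lay far above the other 4, which overlapped each other. Against XX this was a rise of 2.94 ± 0.32, or 7.67-fold (adjusted p = 1.43e-05). The internal part, GYPSY2_I Minus, read 627 and 509 in XX, 514 and 582 in XXYohio, but 2127 and 1339 in XXYcongo. It rose by 1.58 ± 0.26 (adjusted p = 0.000337), with XXYcongo above all other libraries and a wide gap between its own replicates. GYPSY2_LTR Plus was low, at 9 and 7.69 in XX and 19.7 and 11.9 in XXYcongo, and its difference of 0.81 ± 0.53 was not called (adjusted p = 0.236).

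GYPSY10 rose in all 3 of its tested features. GYPSY10_I Minus read 92 and 84.6 in XX, 100.4 and 115 in XXYohio, but 393 and 299 in XXYcongo. With no overlap between XXYcongo and the rest, the rise over XX was 1.94 ± 0.27 (adjusted p = 8.22e-05). GYPSY10_I Plus read 21 and 12.6 in XX, 14.3 and 21.3 in XXYohio, but 71.1 and 75 in XXYcongo, a rise of 2.10 ± 0.39 over XX (adjusted p = 0.000727), again without overlap. GYPSY5_I Minus, which holds nearly all reads of this internal part, gave 531 and 561 in XX, 484 and 569 in XXYohio, but 1944 and 1459.9 in XXYcongo. Its rise was 1.62 ± 0.24 (adjusted p = 0.000121), and its XX and XXYohio libraries overlapped.

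The strands of GYPSY12 rose together, including the Plus strand that prevails in this element. GYPSY12_LTR Plus read 1816 and 1611 in XX, 1683 and 1970.3 in XXYohio, but 4153 and 4469 in XXYcongo. It rose by 1.33 ± 0.21 (adjusted p = 0.000200). GYPSY12_I Minus read 1792 and 1628 in XX, 1373 and 1527 in XXYohio, but 3975 and 3777 in XXYcongo, a rise of 1.18 ± 0.21 (adjusted p = 0.000423). In both features the XXYcongo libraries were the highest, and in GYPSY12_I Minus the XXYohio libraries were the lowest. GYPSY12A_LTR had no called feature. Its Plus strand, with a difference of 1.02 ± 0.42, missed the limma threshold (adjusted p = 0.0621), and its Minus strand gave 0.25 ± 0.38. The Plus difference lay within the range of the 4 called GYPSY12 features, 0.91 to 1.33, and the elements were not tested against each other. Leaving out 1 library, the difference of GYPSY12A_LTR Plus ran from 0.38 to 1.67. It was called in 1 of 13 other scalings, pseudocounts, filters, models and tools. Neither edgeR (adjusted p = 0.71) nor DESeq2 (adjusted p = 0.763) called it, and its lowest difference over all alternatives was -0.032.

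The internal parts of GYPSY3 and GYPSY4 completed the 8 features of smallest p. GYPSY3_I Minus read 362 and 306 in XX, 349 and 470 in XXYohio, but 990.3 and 810.3 in XXYcongo, a rise of 1.43 ± 0.25 (adjusted p = 0.000503). GYPSY4_I Minus read 1300 and 1146 in XX, 999.7 and 1284 in XXYohio, but 3104 and 2621 in XXYcongo, a rise of 1.22 ± 0.23 (adjusted p = 0.00065). In both, XXYcongo stood above the other libraries and XX and XXYohio overlapped.

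**Figure D3:**
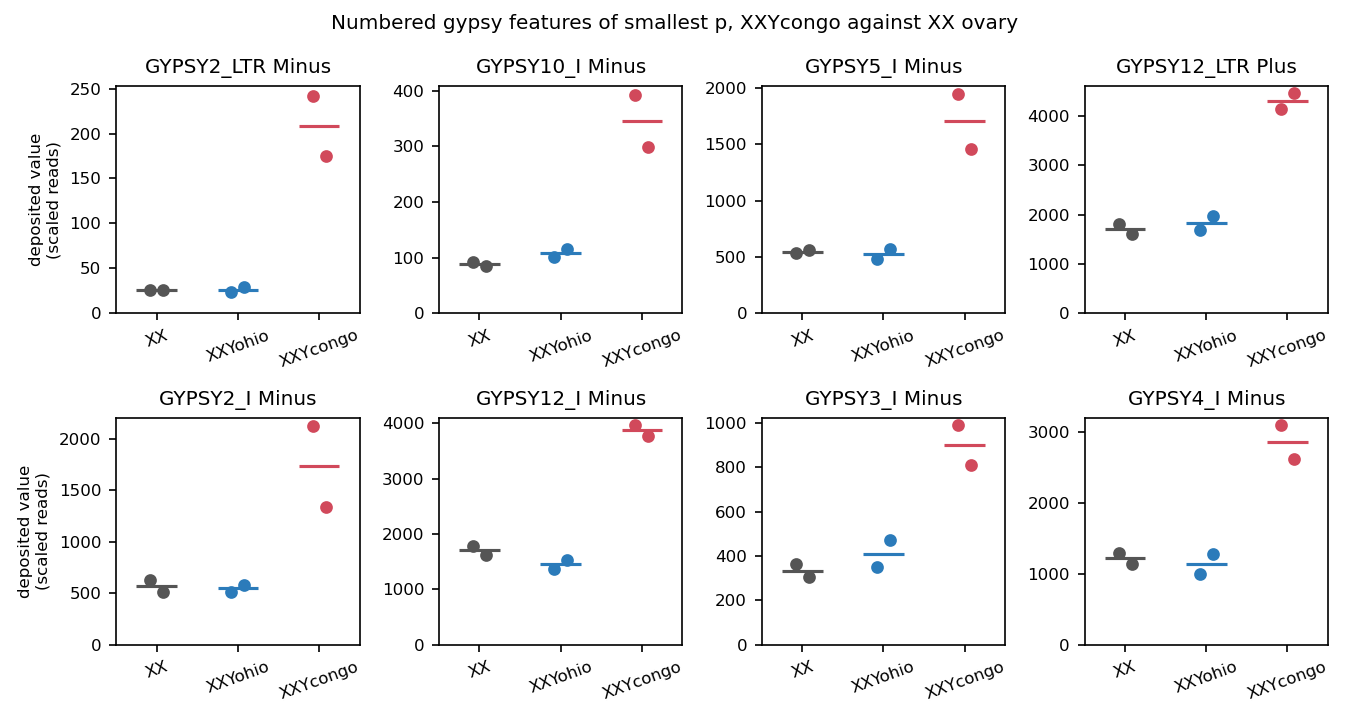
Deposited values (y axis, scaled reads, linear from 0) of the 8 numbered gypsy features of smallest p in XXYcongo against XX ovary, with 1 point per library and a line at each group mean. In every panel both XXYcongo libraries lie above the other 4, as for GYPSY2_LTR Minus at 242 and 175 against 23.5 to 28.6.

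By element, every tested feature rose for GYPSY4 (4 of 4), GYPSY5 (2 of 2), GYPSY6 (4 of 4), GYPSY10 (3 of 3) and GYPSY12 (4 of 4). GYPSY2 and GYPSY3 had 3 of 4 called, with only the Plus strand of the LTR missing in each. Only 2 of 4 features were called for GYPSY8, both internal, and 1 of 2 for GYPSY6A and for GYPSY7. None was called for GYPSY9, with 1 feature, GYPSY11, with 1, or GYPSY12A, with 2. By region and strand, 7 of 8 internal Plus features, 9 of 10 internal Minus, 8 of 11 LTR Minus and 3 of 8 LTR Plus features were called. Of all tested features 45.5% were called higher in this comparison. Counts near or below that share, as for the LTR Plus features (37.5%) or GYPSY8, are not a result about those features. Whether regions or elements differ was not tested, and the LTR Plus features include several of the lowest values.

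All 37 differences were positive, from 0.05 to 2.94, and in 33 features both XXYcongo libraries lay above both XX libraries, against 59.5% of all tested features. The smallest difference was that of GYPSY7_I Plus, which read 32 and 14.7 in XX, 13.8 and 11.7 in XXYohio, but 26.3 and 19.4 in XXYcongo. Its XX libraries lay on both sides of the XXYcongo libraries, and the difference was 0.05 ± 0.46. The other features whose libraries overlapped with XX were GYPSY8_LTR Minus, GYPSY11_LTR Minus and GYPSY12A_LTR Minus.

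**Figure D4:**
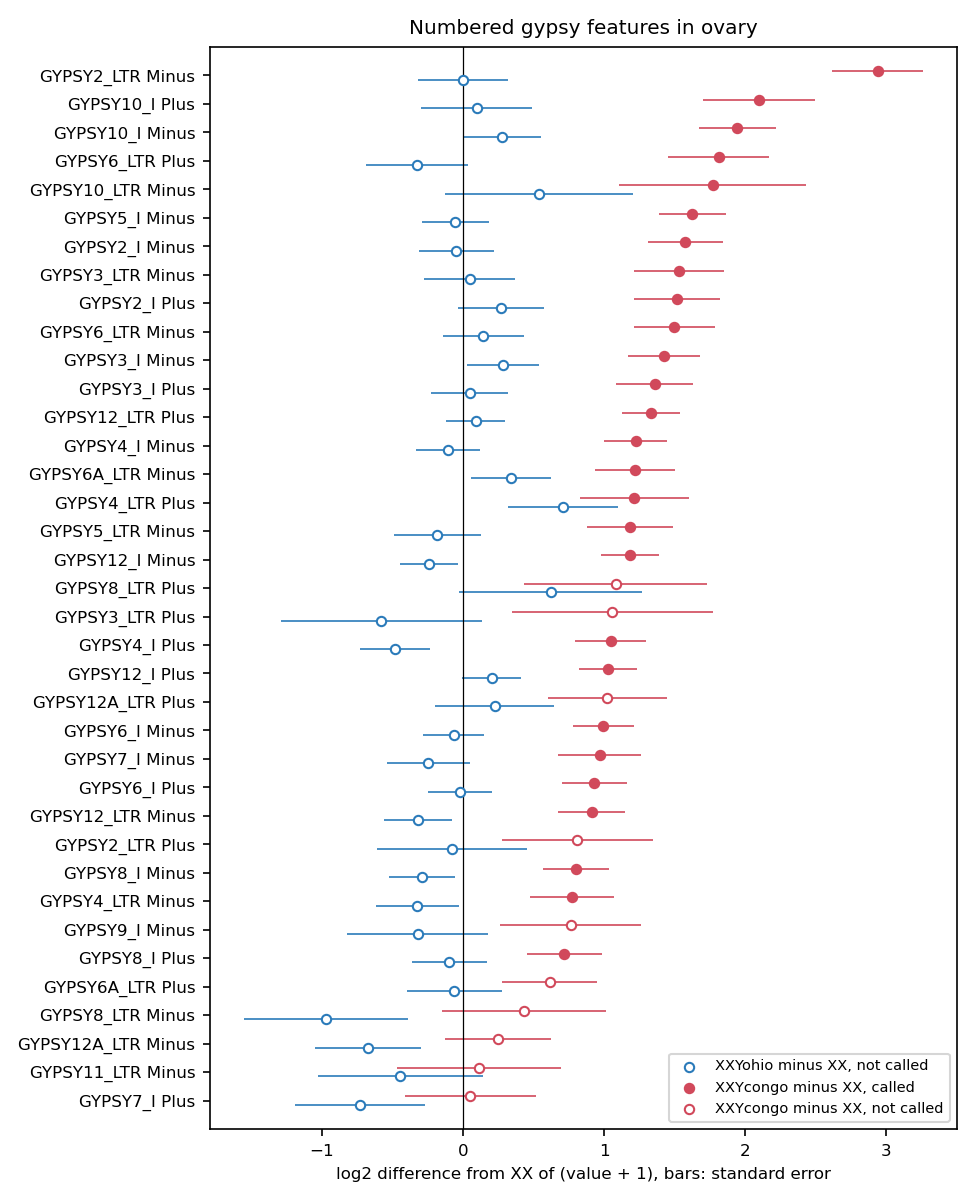
Difference from XX in log2(value + 1) (x axis) for the 37 tested numbered gypsy features in ovary, with standard errors as bars and filled points for features called by limma. All XXYcongo differences lie above 0 on the deposited scale, from 0.05 to 2.94, with 27 filled, and none of the XXYohio points is filled; scaled to the other TE reads, 20 of the 37 XXYcongo differences were above 0.

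The size of the XXYcongo difference depended on what the libraries were scaled to. The median of the numbered gypsy features was 1.08 as deposited, 0.51 with TMM, 0.89 by all non-spike reads, 1.97 by spike-in reads and 0.10 by the reads of all other TE entries. The median over all features moved with it, at 0.74, 0.10, 0.52, 1.60 and -0.30 in the same order. The distance of the numbered gypsy median above it was 0.34, 0.41, 0.37, 0.37 and 0.40. Each scaling multiplies a whole library by 1 factor, so this distance could hardly change and adds no support beyond the deposited scale. Scaled to other TE reads, 20 of 37 differences were positive and 4 features were called, all higher, where 15.8% of all tested features were called higher. The 4 were GYPSY2_LTR Minus, GYPSY10_I on both strands and GYPSY5_I Minus. The same 4 features were called in each of the 13 scalings, pseudocounts, filters, models and tools tried one at a time, with this scaling among the 13. Leaving out 1 library, their deposited-scale differences ran from 1.42 in GYPSY5_I Minus to 3.17 in GYPSY2_LTR Minus. Not all 4 were called by spike-in scaling together with the replicate block, a setting added after seeing the data that called 1 numbered gypsy feature. TE reads were 43.8% ± 2.32 of non-spike reads in XXYcongo and 24.1% ± 2.38 in XX (SD, n = 2), and rDNA reads were 36.5% and 37.1% in XXYcongo against 51.4% to 61.5% in the other ovary libraries. The part of these shares in the result was not tested.

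**Figure D5:**
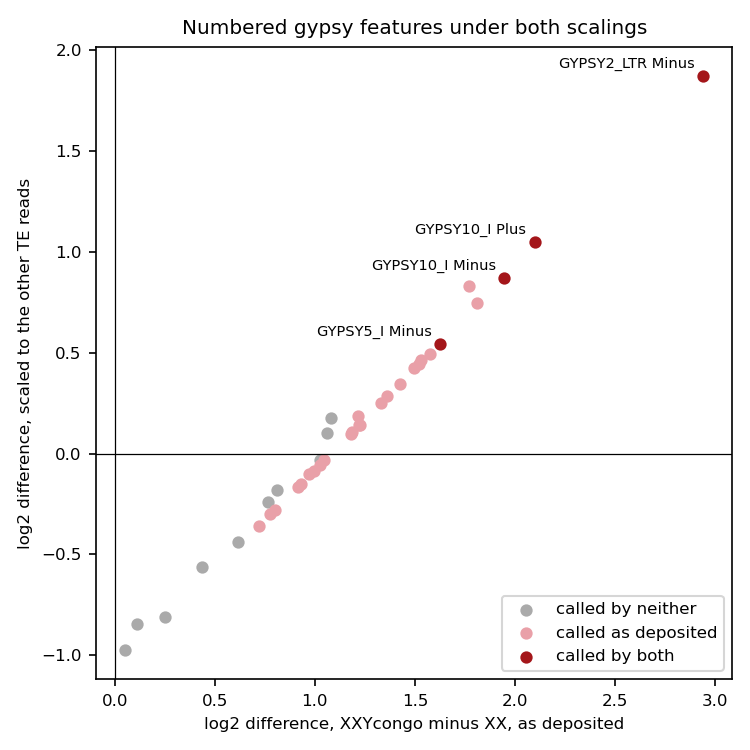
Difference of XXYcongo from XX in log2(value + 1) for each of the 37 tested features, as deposited (x axis) and scaled to the reads of all other TE entries (y axis), coloured by which scaling called the feature. GYPSY2_LTR Minus, GYPSY10_I Plus, GYPSY10_I Minus and GYPSY5_I Minus are called by both, while 20 of 37 points lie above 0 on the y axis.

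The count tests ran on recovered reads with each tool's own scaling in place of the deposited one. They called fewer of the 37 features in XXYcongo against XX, 8 with edgeR and 10 with DESeq2, all higher. The drop from 27 therefore mixes the change of test with the change of scaling. Of all tested features edgeR called 22.4% higher and DESeq2 23.5%. Of the 27 features called on the deposited scale, 18 were called in all 6 fits that left out 1 library. GYPSY8_I Plus was called in none of them (adjusted p = 0.0648 to 0.160). Without XX replicate 2, calls were also lost for GYPSY4_LTR Minus (adjusted p = 0.265), GYPSY8_I Minus (0.107), GYPSY7_I Minus (0.0972), GYPSY10_LTR Minus (0.0839), GYPSY4_LTR Plus (0.0752), GYPSY12_LTR Minus (0.0703) and GYPSY6_I Plus (0.0533). Without XXYcongo replicate 1, they were lost for GYPSY10_LTR Minus (0.272), GYPSY4_LTR Plus (0.0665), GYPSY5_LTR Minus (0.0653), GYPSY4_LTR Minus (0.0610) and GYPSY8_I Minus (0.0518). The low feature GYPSY10_LTR Minus read 3 and 3.50 in XX, 2.87 and 8.81 in XXYohio, but 17.8 and 10.2 in XXYcongo. It was not called without XX replicate 1 (0.106), XXYcongo replicate 2 (0.0842) or XXYohio replicate 2 (0.0506) either. GYPSY4_LTR also lost its calls without XXYcongo replicate 2 (0.128 for Minus, 0.0647 for Plus), and its Minus call without XXYohio replicate 1 (0.0676) or 2 (0.0611).

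Entries spelled Gypsy1 and Gypsy2 in lower case are separate entries that the name rule left out. Of their 7 tested ovary features 6 rose in XXYcongo against XX, and with them added 33 of 44 features were called. Beside this, 45.5% of all tested features were called higher.

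In XXYohio ovary compared with XX, no numbered gypsy feature was called in limma, and none had an unadjusted p under 0.05. edgeR called 0 with 1 feature at an unadjusted p under 0.05, and DESeq2 called 0 with none. Of all tested features 3.29% were called. The differences ran from -0.97 to 0.71 with a median of -0.06, beside 0.10 over all features, and the standard errors ran from 0.21 to 0.71. That median was 0.016 by all non-spike reads, 0.07 without XXYohio replicate 1, and 1.21 with spike-in scaling, where the median over all features was 1.33. GYPSY8_LTR Minus had the lowest difference, -0.97 ± 0.58, from 18 and 6.99 in XX and 7.46 and 3.67 in XXYohio, and these libraries overlapped. GYPSY4_LTR Plus had the highest, 0.71 ± 0.39, from 14 and 11.9 to 23 and 20.6, without overlap (adjusted p = 0.373). In all, 2 features lay wholly higher and 8 wholly lower in XXYohio, against 28.6% and 18.3% of all tested features. Among the 117 other gypsy-group features 7 rose and 2 fell.

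XXYcongo was also set against XXYohio, which shares its libraries with the comparisons above. Here 25 of 37 features rose and none fell, where 44.9% of all tested features were called higher, 4.17% lower and 49.1% in either direction. In 36 of the 37 both XXYcongo libraries lay above both XXYohio libraries, against 56.6% of all tested features. The median difference was 1.23, beside 0.83 over all features. GYPSY2_LTR Minus again had the largest difference, 2.94 ± 0.32 (adjusted p = 2.80e-05). Next by p were GYPSY5_I Minus at 1.68 ± 0.24, GYPSY12_I Minus at 1.42 ± 0.21 and GYPSY2_I Minus at 1.62 ± 0.26, with adjusted p of 0.000155, 0.000185 and 0.000387. The Plus strand of GYPSY4_I, which read 203 and 205 in XX, 137 and 155 in XXYohio, but 446 and 399.9 in XXYcongo, differed by 1.53 ± 0.25 (adjusted p = 0.00039). Its XXYohio libraries were the lowest of the 3 genotypes. GYPSY6_LTR Plus read 39 and 25.2 in XX, 31 and 19.8 in XXYohio, but 120.2 and 105 in XXYcongo, and differed from XXYohio by 2.14 ± 0.36 (adjusted p = 0.00048). The XX and XXYohio libraries of this feature overlapped and XXYcongo lay above both. GYPSY10_I Minus (1.67 ± 0.27, adjusted p = 0.000391) and GYPSY12_LTR Plus (1.24 ± 0.21, 0.000475) completed the 8 of smallest p. GYPSY8_LTR Plus had the smallest difference, 0.46 ± 0.65, from 5.74 and 6.61 in XXYohio to 10.4 and 7.50 in XXYcongo (adjusted p = 0.568). The count fell to 13 with TMM, 2 when scaled to other TE reads and 0 with spike-in scaling, where 21.5%, 9.1% and 6.83% of all tested features were called higher. The median of the 37 was 0.62, 0.18 and 0.89 under these scalings, beside 0.22, -0.21 and 0.49 over all features.

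The balance of strands within an entry was tested as the difference of log2(Minus + 1) and log2(Plus + 1), in which a library's factor cancels except through the added 1, over 16 numbered gypsy entries of 163 in ovary. In XXYcongo against XX, limma called 1 entry: GYPSY2_LTR moved toward Minus. Its Minus reads went from 74.3% and 77.1% in XX to 92.5% and 93.6% in XXYcongo, with 69.5% and 83.0% in XXYohio. The XXYcongo libraries lay above the other 4, and the balance rose by 2.13 ± 0.35 (adjusted p = 0.0363). This call is 6.25% of the 16, near the 7.98% of all entries called, so the count is not a result about numbered gypsy entries. The Plus strand of GYPSY2_LTR held only 8 to 51 reads per library. In XXYohio against XX, GYPSY4_LTR moved toward Plus, from 87.5% and 85.1% Minus reads to 74.7% and 75.2%, with 80.8% and 82.6% in XXYcongo. The 3 genotypes did not overlap in this entry, and the balance fell by 1.03 ± 0.19 (adjusted p = 0.0437). It was the only call among the 16, or 6.25%, again near the 4.91% of all entries called.

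Neither strand call held in every fit. The GYPSY2_LTR call was absent when either XX library or either XXYcongo library was left out, with 0 entries called each time. The GYPSY4_LTR call was absent without XX replicate 1, without XXYohio replicate 2 and without either XXYcongo library, again with 0 called. With no filter on low values neither call was made, the GYPSY2_LTR call was also absent with a mean of at least 20, and the GYPSY4_LTR call with the replicate block or with 2 genotypes in the model. In XXYcongo against XXYohio limma called no numbered gypsy entry, with 5 at an unadjusted p under 0.05 and 0.613% of all entries called. GYPSY2_LTR had the largest difference there, 2.05 ± 0.35 (adjusted p = 0.0763). Without XXYohio replicate 2, or with a pseudocount of 5, 1 entry was called.

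In testis no numbered gypsy feature was called in any of the 3 comparisons. Of the 28 features 18 could be tested, the lowest being GYPSY2_LTR Minus with a mean of 8.22, and the other 10 had means of 1.72 to 4.86. None of the 18 had an unadjusted p under 0.05 in limma in any comparison. edgeR and DESeq2 called 0 in each, with 1 feature at an unadjusted p under 0.05 in edgeR for XYYcongo against XY and none elsewhere. Over all 618 tested testis features, 0.647% were called in XYYohio against XY, 1.62% in XYYcongo against XY and 0% in XYYcongo against XYYohio. Standard errors of the 18 ran from 0.66 to 0.73, so changes of the size seen in ovary were mostly not detectable at this spread.

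The testis differences from XY had a median of -0.07 in XYYohio and 0.32 in XYYcongo, beside 0.04 and 0.25 over all features. Leaving out 1 library could turn these medians. XYYohio moved to 0.33 without XY replicate 2 and to 0.24 without XYYohio replicate 2, and XYYcongo to -0.16 without XY replicate 1. With no filter on low values the XYYohio median was 0.058. Both medians also changed sign with scaling, to 0.041 for XYYohio by other TE reads and -0.044 for XYYcongo by spike-ins. In XYYcongo against XYYohio the median was 0.29, beside 0.23. It was -0.015 with TMM, -0.020 by other TE reads and -0.026 by spike-ins, and 0.05 to 0.59 when 1 library was left out. GYPSY12A_LTR Plus had the highest difference in XYYcongo, 1.33 ± 0.70, from 6 and 5.24 in XY to 13.1 and 18.7 in XYYcongo, with 12.3 and 6.93 in XYYohio. Its XY libraries were the lowest of the 6, and the difference was not called (adjusted p = 0.545). GYPSY12_LTR Minus had the lowest difference in both comparisons with XY, -0.81 ± 0.69 in XYYohio and -0.50 ± 0.69 in XYYcongo. It read 13 and 19.4 in XY, 10.7 and 6.93 in XYYohio, with 8.17 and 14.5 in XYYcongo, so XYYohio lay below XY and XYYcongo overlapped it. GYPSY2_LTR Minus, the feature that rose most in XXYcongo ovary, read 1 and 9.68 in XY, 4.93 and 14.4 in XYYohio, with 6.54 and 12.8 in XYYcongo. The 3 genotypes overlapped, and the value of 1 is a single read. Its difference from XY was 1.05 ± 0.73 in XYYohio, the highest in that comparison, and 1.14 ± 0.73 in XYYcongo. Neither was called by limma (adjusted p = 0.891 and 0.742), and the XYYohio difference ran from -0.16 to 2.26 when 1 library was left out.

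The highest testis values were those of GYPSY12_LTR Plus, with 278 and 569 in XY, 343 and 222 in XYYohio, with 335 and 389 in XYYcongo. The spread between the XY libraries was wider than the whole range of the other 4. GYPSY10_I Minus read 19 and 18.1 in XY, 20.6 and 11.7 in XYYohio, with 24.5 and 31.5 in XYYcongo, where XYYcongo lay above the rest and its difference from XYYohio was 0.80 ± 0.66 (adjusted p = 0.995). GYPSY4_I Plus had the lowest difference of XYYcongo from XYYohio on the deposited scale, -0.14 ± 0.66, with overlapping libraries, and this ran from -0.46 to 0.17 when 1 library was left out. Strand balance was tested for 5 numbered gypsy entries of 119 in testis and limma called none, with none at an unadjusted p under 0.05, where 5.88%, 0% and 0% of all entries were called.

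In the Ensembl release 115 annotation of the fly genome, matched by family name only, 208 insertions carried the names of 11 of these families. The match took gypsy followed by a number alone. Insertions named with a letter after the number, as for GYPSY6A and GYPSY12A, could not be found by it and are not counted below. The most frequent were gypsy8 with 56 and gypsy12 with 51. By chromosome arm 84 were on 2R, 64 on 3L, 22 on 2L, 19 on X, 10 on 3R and 9 on chromosome 4. On the Y chromosome of that annotation there were 0 of them, among 80 annotated transposable elements of all families. Copies on Yohio or Ycongo were not examined, and no coordinates are given because the build behind the deposited tables is not stated.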

How the data were processed

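Small RNA was sequenced from ovary and testis, 6 groups of 2 libraries, with 15 PCR cycles and 50 sequencing cycles per the labels' protocols. Per the submitters' processing notes the authors used Trim Galore and Bowtie 1.1.1. The genome build, annotation, rule for multi-mapping reads and origin of the scaling were not given in the sources used here. Related elements can share reads, so single entries are uncertain to that extent.

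The authors deposited 1 table per tissue. For replicate 1 of XX and of XY the authors deposited a read count per feature with no scaling, judged from its whole values. The other columns hold a normalized signal, per the deposited values: whole reads times 1 factor per library, from 0.387 to 1 per read in ovary and 0.403 to 1 in testis, and division by that factor gave whole reads in 100% of cases (tolerance 0.01). The authors also deposited a p-value for every feature, which is not reported here. Columns headed Cs were read as Yohio by elimination, since the labels do not spell out Cs, and every Yohio value rests on this reading. No value column was left unused for want of a sample.

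Genotypes were compared within a table with limma 3.58.1 in R 4.3.3 (eBayes with trend, two-sided, log2(value + 1), all 3 genotypes in 1 model) over every non-spike feature with a mean of at least 5, adjusted by Benjamini-Hochberg over all of them and called under 0.05. Prior degrees of freedom came to 9.59 for ovary and were infinite for testis, where each error came from the trend alone. Strand balance was fitted with eBayes without a trend. The fits were also run on simulated counts with a single fixed spread. That spread was not taken from these libraries, so the run does not speak to detection in these data. Alternatives were other scalings, pseudocounts and filters, a replicate block and leaving out each library. In addition, edgeR 4.0.16 and DESeq2 1.42.0 were run on the recovered reads with their own scaling. The p-values measure the spread between these libraries. Replicates differed by far more than sampling noise, so none was counted as a repeat.

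The members, the list of other gypsy-group LTR entries, taken by name, and the alternatives were chosen with earlier results of these data known. Values in every library were to be given, per comparison, for at most 8 called features of smallest p, for the largest rise and fall, and for at most 4 strand calls; GYPSY10_I Plus, GYPSY10_LTR Minus and GYPSY2_LTR Plus in ovary and GYPSY12_LTR Plus in testis are shown besides. No sequence is printed because the reference used here holds none for these entries.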

Additional observations from a re-analysis of the deposited data

Results flagged for a closer look

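GYPSY6_I Plus gave differences of opposite sign with Ycongo in the 2 tissues, and only the one in ovary was called. In ovary it read 690 and 575 in XX and 1208 and 1196 in XXYcongo, a log2 difference of 0.93 ± 0.23 (0.9314) that was called by limma (adjusted p = 0.00435). In testis it read 118 and 139 in XY and 98.1 and 114 in XYYcongo, a log2 difference of -0.27 ± 0.67 (-0.2723) that limma did not call (adjusted p = 0.975). It stands here because both XXYcongo libraries lay above both XX libraries while both XYYcongo libraries lay below both XY libraries. The difference between the tissues was not tested, and in ovary the difference was -0.15 when scaled to the other TE reads. Groups of 2 libraries are too small to look for a single library that stands apart.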

How the results depend on the processing

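Numbered gypsy features called in XXYcongo against XX went from 27 to 14 with TMM scaling, 17 with spike-in scaling, 4 when scaled to other TE reads, 8 with edgeR and 10 with DESeq2. In XXYcongo against XXYohio they went from 25 to 13, 0 and 2 under the same scalings, in that order, and 10 with either tool. Of all tested features, 15.8% were called higher in XXYcongo against XX by other TE reads, 22.4% with edgeR and 23.5% with DESeq2. Against XXYohio the share was 21.5% with TMM, 6.83% by spike-ins and 9.1% by other TE reads. No such share is given for the other alternatives, so their counts are not read as a result about these entries. Calls were 19 to 26 and 22 to 27 in these comparisons when 1 library was left out, and 0 for XXYohio against XX and in testis. The median in XXYcongo against XX was 0.51 with TMM, 0.89 by non-spike reads, 0.10 by other TE reads and 1.97 by spike-ins, and 1.02 to 1.27 leaving out 1 library. Against XXYohio it was 0.62, 0.93, 0.18 and 0.89, and 1.08 to 1.31. XXYohio against XX had a median of 1.21 with spike-in scaling and of -0.17 to 0.07 leaving out 1 library. In testis the ranges leaving out 1 library were -0.42 to 0.33 for XYYohio and -0.16 to 0.70 for XYYcongo against XY. Scaled to other TE reads, called features of XXYcongo against XX took the other sign in GYPSY12_I Plus (-0.055), GYPSY4_I Plus (-0.034), GYPSY6_I Minus (-0.087), GYPSY7_I Minus (-0.10), GYPSY6_I Plus (-0.15), GYPSY12_LTR Minus (-0.17), GYPSY8_I Minus (-0.28), GYPSY4_LTR Minus (-0.30) and GYPSY8_I Plus (-0.36); the last was -0.040 with edgeR and -0.043 with DESeq2. Strand calls went from 1 to 0 with no filter in both XXYohio and XXYcongo against XX, with a mean of at least 20 in XXYcongo against XX, and with 2 genotypes in the model or the replicate block in XXYohio against XX. They ranged from 0 to 1 leaving out 1 library in each ovary comparison, and in XXYcongo against XXYohio 1 was called with a pseudocount of 5. The cause was not tested in any of these.

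The labels do not say what libraries of the same replicate number share, and the main model held no term for that number. The correlation of same-numbered deviations was 0.02 to 0.25 in ovary and 0.35 to 0.41 in testis, with 2 pairs per comparison. With the replicate block 28 features were called in XXYcongo against XX and 28 in XXYcongo against XXYohio. The share of all tested features called with the block is not given here. The spike-in mix differed by replicate number in all 6 groups. The first spike-in held 29.8% to 51.4% of spike-in reads in replicate 1 and 0.0374% to 0.633% in replicate 2 of the ovary groups. In testis it held 62.1% to 87.1% in replicate 1 and 0.106% to 0.814% in replicate 2. Replicate number thus went with a difference in the libraries, and its part in the results above was not tested. Spike-in scaling with the replicate block, chosen after seeing the data, called 1 feature in XXYcongo against XX and 0 against XXYohio. For this setting, too, no share of all tested features is given. With 2 libraries a group and as few as 1245 reads on these features in a testis library, small testis changes were not detectable.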
